A study of Mus musculus with 6 samples.

Results

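The genes described here are 59 genes of G2 and mitosis, with the proliferation marker Mki67 among them. They were chosen by symbol: a row of the table of estimated counts was a member when its Ensembl identifier, read without its version, carried 1 of 59 listed symbols in the GRCm38 annotation. All 59 were found among the 53465 genes of the table, and all 59 passed the filter on low counts that left 14038 genes tested. The cells were 4T1, an established mouse mammary carcinoma line, recovered from lesions that grew after surgery in mice dosed with axitinib, a VEGF receptor kinase inhibitor, at 100 mg/kg/day. They were kept in culture with 0.5 µM axitinib, stained with C12FDG, which fluoresces once β-galactosidase has cleaved it, and sorted. SM positive is the fraction with high signal (3 libraries) and SM negative the fraction with low signal (3 libraries). Both fractions carry the same resistance history and the same drug, so no untreated or drug-sensitive 4T1 sample enters any comparison. Whether the resistant cells are 1 clone is not given in the sources used here.

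Cells enter mitosis when CDK1, bound to A- and B-type cyclins, is switched on by CDC25 phosphatases. Polo and Aurora kinases, the kinetochore, the spindle checkpoint and spindle motors then align and part the chromosomes, and the anaphase-promoting complex ends mitosis by marking cyclins and securin for destruction. The genes are transcribed late in the cell cycle by FOXM1, B-MYB and the MuvB complex, and the DREAM complex silences them in resting and senescent cells. A senescent population is therefore usually described by low levels of these genes, and high β-galactosidase activity of the kind used for the sort is a common senescence marker. The comparison asks how far the fraction sorted for that activity differs from the other fraction in its mitotic transcripts.

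The promoters of these genes share short elements that the choice of members did not use. The RefSeq promoter table (GRCm38.p6; 250 bases before to 50 bases after each annotated start) held 52 windows for 49 of the 59 members, against 32851 windows in all. TTTGAA, the core of the cell cycle genes homology region to which MuvB binds, was present on either strand in 71.2% of member windows and in 17.9% of all windows. TTTAAA, a variant of that core that reads the same on both strands, was in 21.2% of member windows and 13.2% of all. CCAAT, the box bound by NF-Y, was in 71.2% and 37.4%, and at least 2 copies of it were in 46.2% and 11.7%. The E2F-type letters TTCCCGC and TTGGCGC were in 3.85% and 15.4% of member windows, and in 4.60% and 2.45% of all windows. A window with CCAAT and either core together made up 65.4% of member windows and 10.7% of all. The G1/S and DNA replication genes described further on had 53 windows. TTTGAA was in 18.9% of those and TTTAAA in 11.3%. CCAAT was in 56.6%, at least 2 copies of it in 35.85%, and CCAAT with either core in 15.1%. TTCCCGC was in 35.85% and TTGGCGC in 20.8%. CCAAT and the E2F-type letters are thus not particular to the members. These are matches of letters and not mapped binding sites.

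The windows of 4 members are shown because these genes stand in opposed pairs in the measurements that follow: cyclin B1 against cyclin B2, and Top2a against Mki67. Capitals mark every match to the 5 motifs on either strand, and each sequence is written 5′ to 3′ along its gene.
Ccnb1 (chr13:100786437-100786736, minus strand): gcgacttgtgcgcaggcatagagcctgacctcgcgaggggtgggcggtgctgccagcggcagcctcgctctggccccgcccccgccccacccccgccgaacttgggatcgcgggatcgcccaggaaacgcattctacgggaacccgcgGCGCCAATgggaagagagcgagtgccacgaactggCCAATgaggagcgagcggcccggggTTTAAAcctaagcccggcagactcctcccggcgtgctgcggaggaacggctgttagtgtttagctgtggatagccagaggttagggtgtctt
Ccnb2 (chr9:70421505-70421804, minus strand): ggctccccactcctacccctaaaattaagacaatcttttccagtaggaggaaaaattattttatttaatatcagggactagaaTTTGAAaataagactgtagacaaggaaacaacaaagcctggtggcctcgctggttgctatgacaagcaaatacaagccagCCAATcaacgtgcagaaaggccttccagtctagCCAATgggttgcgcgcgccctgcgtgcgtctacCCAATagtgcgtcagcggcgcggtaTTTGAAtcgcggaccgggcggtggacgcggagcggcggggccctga
Top2a (chr11:99024140-99024439, minus strand): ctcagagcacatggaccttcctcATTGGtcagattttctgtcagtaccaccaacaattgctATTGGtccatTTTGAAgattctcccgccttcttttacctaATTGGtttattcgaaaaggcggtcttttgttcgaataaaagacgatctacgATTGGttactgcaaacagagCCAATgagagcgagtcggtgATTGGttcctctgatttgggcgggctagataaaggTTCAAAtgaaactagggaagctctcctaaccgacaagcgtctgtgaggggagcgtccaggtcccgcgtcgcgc
Mki67 (chr7:135716330-135716629, minus strand): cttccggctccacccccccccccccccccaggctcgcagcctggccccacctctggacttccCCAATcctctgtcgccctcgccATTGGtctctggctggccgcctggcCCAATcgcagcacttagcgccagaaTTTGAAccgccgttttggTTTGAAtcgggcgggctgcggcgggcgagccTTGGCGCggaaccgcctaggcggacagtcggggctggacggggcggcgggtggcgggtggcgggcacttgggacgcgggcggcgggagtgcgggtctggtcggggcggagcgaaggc
In the Ccnb1 window the core is TTTAAA, 42 to 37 bases before the start, below CCAAT boxes 67 and 99 bases before it; the upstream box overlaps a reverse-strand TTGGCGC. The Ccnb2 window holds TTTGAA from base 5 to base 10 of the transcript and CCAAT at 21, 54 and 87 bases before the start. Top2a has 6 matches to CCAAT and a reverse-strand TTTGAA ending 18 bases before its start. Mki67 has TTTGAA starting 98 and 116 bases before its start and 3 matches to CCAAT. All 4 windows held CCAAT and at least 1 core, whichever way the gene moved.

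The 59 genes did not move in 1 direction. Their summed level overlapped between fractions, at 9028.7 ± 663 CPM (SM positive) against 8703 ± 466 CPM (SM negative) (mean ± SD, n = 3 each; CPM is the count scaled to library size with TMM factors). The median log2 change over the 59 was 0.04, beside -0.0008 over all genes tested, with 35 members positive and 24 negative. Without SM positive replicate 1 the median turned to -0.03, with 26 positive and 33 negative. In the fit that takes the libraries as independent, none of the 59 passed an adjusted p of 0.05, where 1.35% of all genes did (edgeR quasi-likelihood test with Benjamini-Hochberg adjustment). At an unadjusted p of 0.05, 15 members passed, 12 higher and 3 lower, which is 25.4% of them against 13.6% of all genes (8.04% higher and 5.58% lower). With DESeq2 1 member passed (Prc1, higher; 2.38% of all genes), and with limma-voom none (1.23%). Without the filter on low counts edgeR called 8 members, all higher: Top2a, Ccnb1, Cdc25b, Spc25, Kif11, Nusap1, Prc1 and Ube2c (2.56% of all genes). In bulk samples, fewer cells in mitosis and less RNA per cell cannot be told apart.

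When the replicate number was added as a block, so that each SM positive library was compared with the SM negative library of the same number, 22 of the 59 members passed. Of these, 15 rose and 7 fell in SM positive cells. That is 37.3% of the members, where 14.1% of all genes passed (8.52% higher and 5.6% lower). Among the 7564 genes at least as abundant as the lowest member, 19.6% passed (11.9% higher and 7.73% lower). That cut-off is a floor and does not match the members' levels. All differences were small. The 15 rises ranged from 1.12-fold to 1.28-fold, and the 7 falls from 1.09-fold to 1.16-fold. The block left the changes nearly as they were and narrowed the error given by the fit. The median SE of a member was 0.082 on the log2 scale without it and 0.047 with it. These SEs and p-values rest on a variance partly borrowed from other genes. They do not measure the spread of a gene's own pairs alone, and that spread can be wider. Every rise or fall of a member named from here on is from this paired fit, and without the block edgeR with its standard filter called none of the 59.

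The paired calls depended on the pairs. Without replicate pair 1, 7 members passed, all among the 22 (5.03% of all genes). Without pair 2 there were 17 (8 higher and 9 lower), 15 of them among the 22 (12.6% of all genes). Without pair 3 there were 20, 15 of them among the 22, and the split became 19 higher and 1 lower (6.23% of all genes). A paired DESeq2 fit called 13 of the 22 and no other member (4.39% of all genes). Only Nusap1, Prc1, Kif11, Cdc25b and Spc25, all higher, passed in each of the 8 paired fits that were run, and the other 17 lost the call in at least 1. The 8 were the paired edgeR fit with all libraries, 3 without a pair, 2 with other scalings, DESeq2 and limma-voom. The 2 with other scalings and limma-voom called the same 22. Over the 8 fits the highest adjusted p was 0.00867 for Nusap1, 0.0318 for Prc1 and 0.0413 for Cdc25b. For Spc25 it was 0.0456 and for Kif11 0.0477, close to the threshold. The share of all genes that passed all 8 was not computed.

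**Figure D1:**
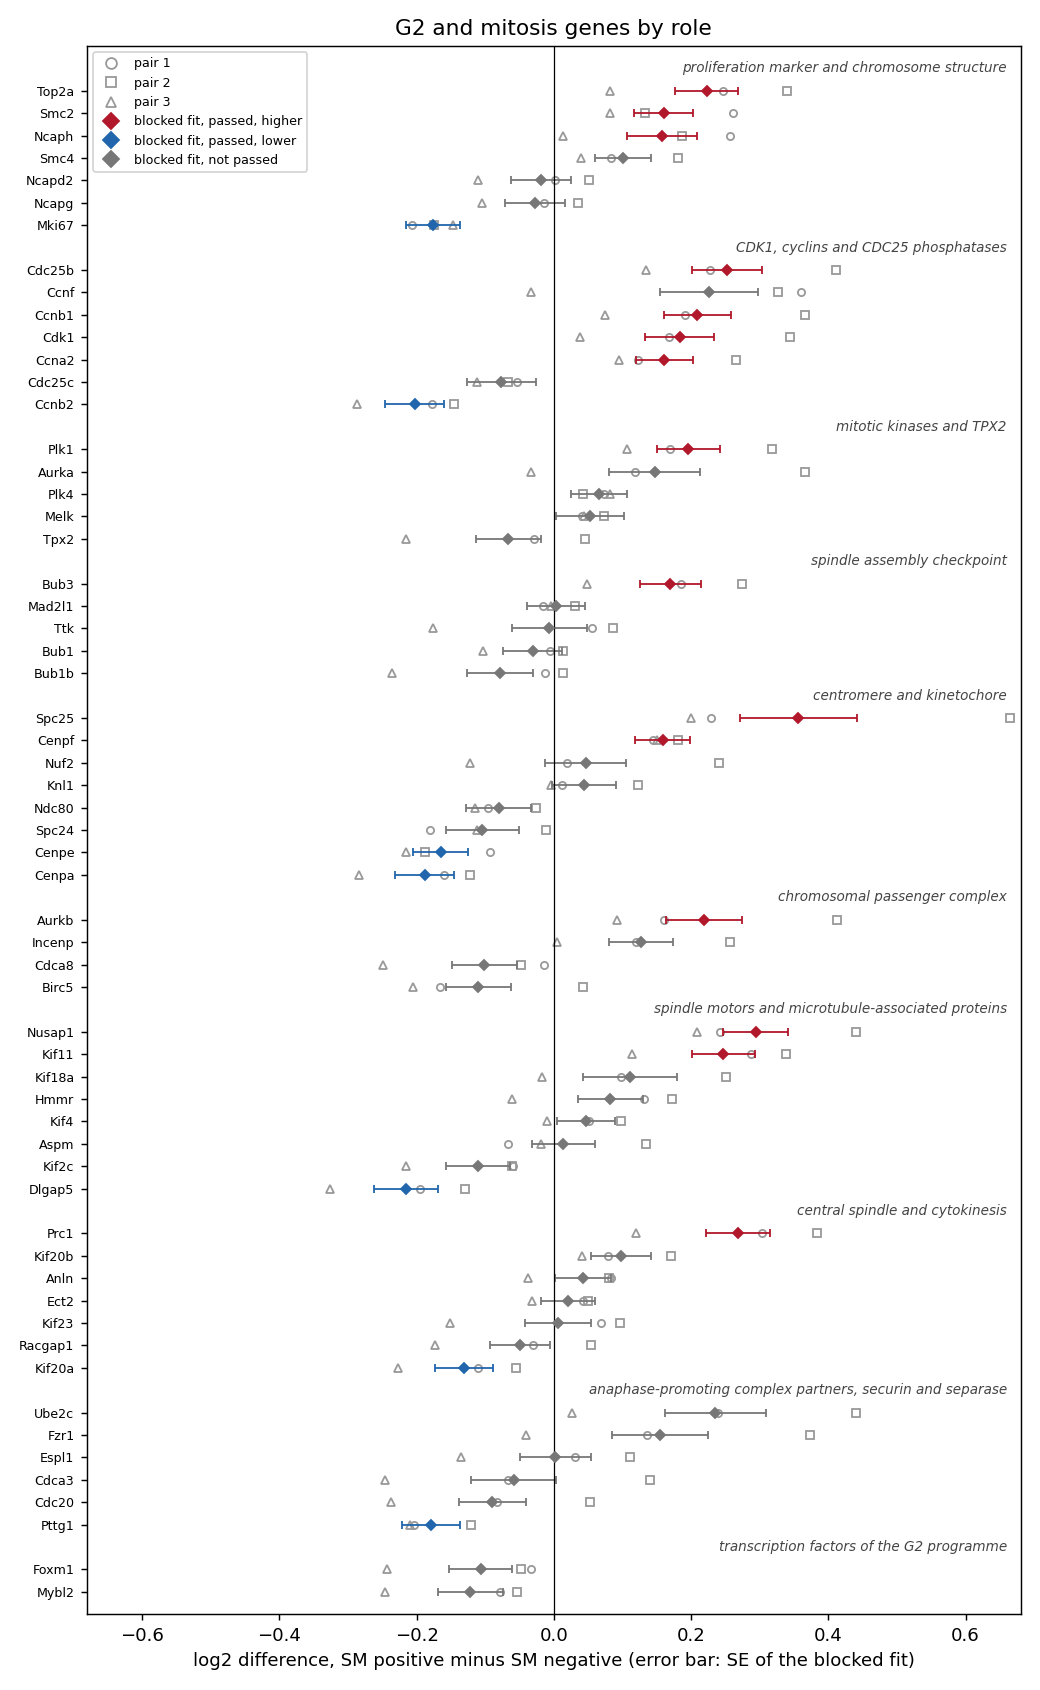
Log2 difference between SM positive and SM negative (horizontal axis) for each of the 59 genes (vertical axis, grouped by role); open symbols are the 3 replicate pairs, and diamonds with bars are the estimate and SE of the paired fit. The 15 genes that passed higher and the 7 that passed lower are spread over most roles, and the triangles of pair 3 usually lie to the left of the squares of pair 2.

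Mki67 encodes Ki-67, the protein that coats mitotic chromosomes and is the usual histological marker of cycling cells (ENSMUSG00000031004.8, chromosome 7, 135689784 to 135716361, minus strand). Its level was 431, 436 and 416 CPM in SM positive replicates 1, 2 and 3 and 498, 492 and 461 CPM in SM negative replicates 1, 2 and 3. All 3 SM positive libraries lay below all 3 SM negative ones, and the SM negative library closest to them was replicate 3. In the paired fit Mki67 fell by 0.18 on the log2 scale (SE 0.0388, adjusted p = 0.0042), and the call ended without pair 1 (adjusted p = 0.0996). The within-pair differences were -0.21, -0.18 and -0.15, closely alike, and without the block the adjusted p was 0.169.

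Top2a, which encodes the topoisomerase that untangles sister chromatids, moved the other way (ENSMUSG00000020914.17, chromosome 11, 98992943 to 99024189, minus strand). It was the most abundant member by counts, at 832, 877 and 735 CPM in the SM positive replicates 1, 2 and 3, against 701, 693 and 695 CPM in their SM negative counterparts. The SM negative values were almost equal, and all 3 SM positive values lay above them, with replicate 3 nearest. Top2a rose 1.17-fold (log2 change 0.22 ± 0.0463 SE, adjusted p = 0.00319 in the paired fit, 0.161 without the block), and the paired call ended without pair 1 (0.0786). Among the condensin genes, whose products compact chromosomes, Smc2 rose (log2 change 0.16, adjusted p = 0.0161; 0.337 without pair 1 and 0.101 with DESeq2). Ncaph also rose (log2 change 0.16, adjusted p = 0.0446), but not without pair 1 (0.483) or pair 2 (0.147) or with DESeq2 (0.42). Smc4, Ncapd2 and Ncapg did not pass, with paired log2 changes of 0.10, -0.02 and -0.03. Smc2 and Ncaph were chosen after their values were seen.

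**Figure D2:**
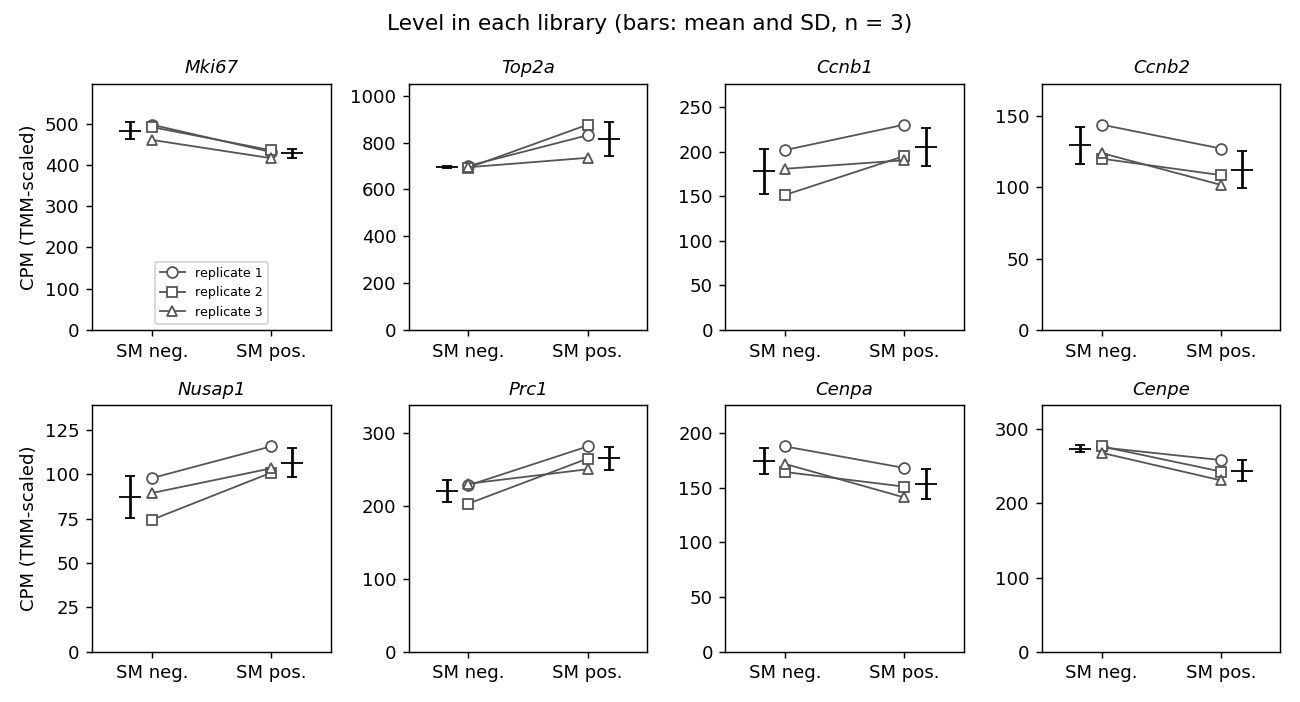
CPM (TMM-scaled) of 8 members in each library; lines join the SM negative and SM positive library with the same replicate number, and the bars beside them are the mean and SD of 3. Mki67, Ccnb2, Cenpa and Cenpe lie lower in SM positive cells in all 3 pairs, and Top2a, Ccnb1, Nusap1 and Prc1 lie higher in all 3.

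In the CDK1 and cyclin group 5 of 7 members passed, 4 higher and 1 lower. That is 71.4%, against 14.1% of all genes and 19.6% from the lowest member's level up. Of these calls 3 (Cdk1, Ccna2 and Ccnb1) ended without pair 1 or without pair 2. Cdk1, the kinase that drives mitotic entry, stood at 407, 408 and 346 CPM in the SM positive replicates 1, 2 and 3, against 363, 321 and 337 CPM in their SM negative counterparts. SM positive replicates 1 and 2 lay above every SM negative library, and replicate 3 fell among them. Cdk1 rose by a log2 change of 0.18 ± 0.0502 SE (adjusted p = 0.0253), and the call ended without pair 1 (0.14) or pair 2 (0.129). Ccna2, the A-type cyclin of S phase and G2, rose by 0.16 ± 0.0417 SE (adjusted p = 0.0127; 0.0891 without pair 1 and 0.0857 without pair 2). Cdc25b, a phosphatase that activates CDK1 at the onset of mitosis, measured 76.4, 63.6 and 66.7 CPM against 65.2, 47.9 and 60.8 CPM in replicates 1, 2 and 3. Its fractions overlapped, since SM negative replicate 1 exceeded SM positive replicate 2, yet every pair was higher (0.23, 0.41 and 0.13 on the log2 scale). Cdc25b rose 1.19-fold (adjusted p = 0.00216).

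The B-type cyclins, the partners of CDK1 in mitosis, moved apart. Ccnb1 (chromosome 13, 100778650 to 100786570, minus strand) measured 231, 195 and 191 CPM in the SM positive replicates 1, 2 and 3, against 202, 152 and 181 CPM in their SM negative counterparts. Replicate 1 was the highest library of each fraction, so the fractions overlapped while each pair was higher, by 0.19, 0.37 and 0.07. Ccnb1 rose by a log2 change of 0.21 ± 0.0486 SE (adjusted p = 0.00865), and not without pair 1 (0.0793) or pair 2 (0.0708). Of its 31-base stretches, 27.8% also occur in transcripts of other genes, and Ccnb1-ps, Gm12856 and Gm8416 share the most of them. Ccnb2 (chromosome 9, 70407692 to 70421547, minus strand) measured 127, 108 and 102 CPM against 144, 120.0 and 124 CPM, again with replicate 1 the highest of each fraction. Every pair was lower, with differences of -0.18, -0.15 and -0.29, and Ccnb2 fell in the paired fit (log2 change -0.20 ± 0.0434 SE, adjusted p = 0.00336; 0.0623 without pair 3). Without the block the adjusted p was 0.463 for Ccnb1 and 0.383 for Ccnb2. Ccnf, the cyclin F subunit of a ubiquitin ligase, had a log2 change of 0.23 and did not pass (adjusted p = 0.0626), and neither did Cdc25c (-0.08).

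Among the kinases, Plk1, the polo kinase that promotes mitotic entry and spindle assembly, rose, from a mean of 81.0 ± 10.5 CPM in SM negative to 92.6 ± 8.22 CPM in SM positive libraries (SD, n = 3; a log2 change of 0.20 ± 0.0457 SE with adjusted p = 0.00642). That call ended without pair 1 (0.0783), without pair 2 (0.0768) and with DESeq2 (0.0917). Of the 31-base stretches of Plk1, 18.7% are also found elsewhere, with Plk-ps1 sharing the most. Aurka, the spindle-pole Aurora kinase, stood at 78.1 ± 11.2 and 86.3 ± 7.96 CPM and did not pass (adjusted p = 0.199). Its activator Tpx2, the centriole kinase Plk4 and the kinase Melk did not pass either, with log2 changes of -0.07, 0.07 and 0.05. The spindle checkpoint genes hold back anaphase until all chromosomes are attached. Among them Bub3 was the 1 of 5 to pass (20%, against 14.1% of all genes and 19.6% from the lowest member's level up). It measured 193, 187 and 173 CPM against 170.0, 155 and 167 CPM, with every SM positive library above every SM negative one. Bub3 rose by 0.17 (adjusted p = 0.0138; 0.168 without pair 1, 0.123 without pair 2 and 0.074 with DESeq2). Bub1, Bub1b, Mad2l1 and Ttk had log2 changes between -0.08 and 0.003.

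The centromere and kinetochore group was split. Cenpa, the histone H3 variant that marks centromeres, measured 168, 151 and 141 CPM in the SM positive replicates 1, 2 and 3, against 188, 164 and 172 CPM in their SM negative counterparts. The fractions overlapped only at SM positive replicate 1, which exceeded SM negative replicate 2. Cenpa fell by 0.19 on the log2 scale (adjusted p = 0.00497), with the call ending without pair 1 (0.053) or pair 3 (0.0924). Cenpe, the kinesin that carries chromosomes to the spindle equator, measured 259, 243 and 231 against 276, 277 and 268 CPM with no overlap. It fell by 0.16 (adjusted p = 0.00889), and not without pair 3 (0.114).

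Spc25, a subunit of the NDC80 complex that binds microtubules, had the greatest rise of the 59. Its levels were 35.0, 36.6 and 30.5 CPM in the SM positive replicates 1, 2 and 3, against 29.8, 23.0 and 26.6 CPM in their SM negative counterparts, with no overlap between fractions. It rose 1.28-fold (log2 change 0.36 ± 0.085 SE, adjusted p = 0.0212 in the paired fit and 0.163 without the block). Pair 2 gave more of this than the others, with within-pair differences of 0.23, 0.67 and 0.20. The other subunits of that complex, Ndc80, Nuf2 and Spc24, had log2 changes of -0.08, 0.05 and -0.10, and none passed; their difference from Spc25 was not tested. Cenpf, a large kinetochore and nuclear matrix protein chosen after its values were seen, rose by 0.16 (adjusted p = 0.0118). The call ended without pair 1 (0.121), without pair 3 (0.0597) and with DESeq2 (0.0891). Knl1, the scaffold that recruits checkpoint proteins, did not pass (0.04).

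Within the chromosomal passenger complex, which corrects faulty attachments, the kinase gene Aurkb was the 1 of 4 to pass. That is 25%, against 14.1% of all genes and 19.6% from the lowest member's level up. Aurkb rose, from a mean of 68.6 ± 7.38 CPM in SM negative to 79.9 ± 6.72 CPM in SM positive libraries (SD, n = 3; a log2 change of 0.22 ± 0.0548 SE with adjusted p = 0.0155), and not without pair 1 (0.0671) or pair 2 (0.111) or with DESeq2 (0.0946). Birc5, which encodes survivin, stood at 145 ± 13.8 CPM in SM negative and 134 ± 13.6 CPM in SM positive cells (log2 change -0.11, adjusted p = 0.136). The scaffold Incenp and the targeting subunit Cdca8 had log2 changes of 0.13 and -0.10. The 4 subunits of this complex thus gave 2 positive and 2 negative estimates.

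Nusap1 and Kif11 were the clearest of the spindle genes. Nusap1, a protein that bundles spindle microtubules around chromosomes (ENSMUSG00000027306.15, chromosome 2, 119618298 to 119651244, plus strand), measured 116, 101 and 103 CPM in the SM positive replicates 1, 2 and 3, against 97.7, 74.3 and 89.3 CPM in their SM negative counterparts. The fractions did not overlap, and the pairs differed by 0.24, 0.44 and 0.21. It rose 1.23-fold with the smallest paired adjusted p of the members, 0.00028 (log2 change 0.29 ± 0.0473 SE; adjusted p = 0.226 without the block). Oip5, which overlaps it on the opposite strand, had a log2 change of -0.08 (adjusted p = 0.604). Unlike the 4 windows shown, the Nusap1 window held none of the 5 motifs. Kif11, the kinesin that pushes spindle poles apart (chromosome 19, 37376403 to 37421859, plus strand), measured 174, 175 and 149 against 143, 139 and 138 CPM, also without overlap. Kif11 rose 1.19-fold (log2 change 0.25 ± 0.0454 SE, adjusted p = 0.000939; 0.128 without the block).

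Dlgap5, a microtubule-stabilising protein of the spindle, was the spindle gene that fell. It stood at 74.8 ± 10.5 CPM in SM negative and 64.5 ± 10.1 CPM in SM positive cells, with every pair lower (-0.20, -0.13 and -0.33). Its paired log2 change was -0.22 ± 0.0466 SE (adjusted p = 0.00359), and the call ended without pair 1 (0.0517), without pair 3 (0.0807) and with DESeq2 (0.0727). The motors Kif4, Kif2c and Kif18a, the hyaluronan receptor and spindle protein gene Hmmr, and the spindle-pole gene Aspm did not pass. Their paired log2 changes ran from -0.11 for Kif2c to 0.11 for Kif18a.

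Of the central spindle and cytokinesis genes, Prc1, which crosslinks the antiparallel microtubules of the midzone, was the clearest (ENSMUSG00000038943.16, chromosome 7, 80294450 to 80316259, plus strand). It measured 281, 265 and 249.9 CPM in the SM positive replicates 1, 2 and 3, against 228, 203 and 230.1 CPM in their SM negative counterparts. All 3 SM positive libraries lay above all 3 SM negative ones. Prc1 rose 1.2-fold (log2 change 0.27 ± 0.0464 SE, adjusted p = 0.000713), and its adjusted p of 0.0925 without the block was the lowest of the 59. Rccd1, which overlaps it on the opposite strand, shares some of its 31-base stretches, 12.5% of which lie in other transcripts too. Kif20a, the kinesin that brings passenger proteins to the midzone, went the other way and fell by 0.13 (adjusted p = 0.0432). Its call ended without pair 1 (0.187), without pair 3 (0.343) and with DESeq2 (0.189). Of its stretches 26.7% are shared with Cdc23, which overlaps it on the opposite strand. Cdc23 fell as well (paired log2 change -0.14, adjusted p = 0.0362), and whether the falls of Kif20a and Cdc23 are linked through shared reads was not tested. Kif23 and Racgap1, the 2 parts of centralspindlin, had log2 changes of 0.01 and -0.05. Ect2, Anln and Kif20b, which act on the contractile ring and in abscission, lay between 0.02 and 0.10, and none of these 5 passed.

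Pttg1 encodes securin, the inhibitor of separase. At mitotic exit Pttg1 was the 1 of 6 to pass (16.7%, against 14.1% of all genes and 19.6% from the lowest member's level up). It fell, from a mean of 89.8 ± 9.76 CPM in SM negative to 79.3 ± 7.55 CPM in SM positive libraries (SD, n = 3; a log2 change of -0.18 ± 0.0425 SE with adjusted p = 0.00717; 0.134 without pair 1, 0.0804 without pair 3 and 0.118 with DESeq2). Separase itself, Espl1, had a log2 change of 0.00. Ube2c, the ubiquitin-conjugating enzyme of the anaphase-promoting complex, stood at 172, 161 and 142 CPM against 145, 118 and 139 CPM in replicates 1, 2 and 3. Every pair was higher, but pair 3 by only 0.03, and Ube2c did not pass (log2 change 0.24 ± 0.0735 SE, adjusted p = 0.085). The complex's activators Cdc20 and Fzr1 had log2 changes of -0.09 and 0.15, and Cdca3, a mitotic entry factor, -0.06. The transcription factor genes of the programme did not pass. Foxm1 stood at 138 ± 11.5 CPM in SM negative and 128 ± 18.1 CPM in SM positive cells (log2 change -0.11, adjusted p = 0.135), and Mybl2, which encodes B-MYB, at 68.2 ± 5.76 and 62.9 ± 9.52 CPM (-0.12, adjusted p = 0.0939). For each of these 2 genes every pair was lower.

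The promoter letters of members that rose, fell or did not pass were set side by side. The 15 windows of members that rose came from 13 genes, as Bub3 and Prc1 were each counted more than once. Members without a window were left out. Of those 15 windows, 73.3% held TTTGAA and 86.7% held CCAAT (69.2% and 84.6% of the 13 genes). Of the 5 windows of members that fell, 60% held TTTGAA and 80% held CCAAT, and of the 32 windows of members that did not pass, 71.9% and 62.5%. These sets are small, and the shares are a description without a test.

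Relative to the length of their exons, the members spanned a wide range, on a scale of CPM per kilobase averaged over the 6 libraries. Smc4 stood highest at 108, followed by Cdc20 at 98.6, Ccna2 at 89.8, Top2a at 83.8, Ccnb2 at 78.9 and Cdk1 at 73.7, and Kif18a was lowest at 2.14. Mki67 stood at 45.3, close to Ccnb1 at 45.5. Ccnb1 was below Ccnb2 on this scale, but above it in CPM without regard to length (192 against 121). Lengths are of all annotated exons joined, so they may exceed the transcript that these cells use. These genes were picked for this level scale after their values were seen.

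Libraries with the same replicate number deviated together in these genes. Deviations from the fraction mean, across the 59 members, correlated at 0.68, 0.68 and 0.52 for the 3 same-numbered couples of libraries; over all genes the values were 0.22, 0.28 and 0.196. These are correlations across genes, which are not independent of each other. The median member lay 0.08 and 0.14 above its 6-library mean on the log2 scale in SM negative and SM positive replicate 1, and 0.05 and 0.11 below it in the libraries of replicate 3. In replicate 2 it lay 0.11 below in SM negative and 0.03 above in SM positive. The pairs also disagreed on the group's direction. In pair 1, 35 members were higher in SM positive cells, in pair 2 it was 45, and in pair 3 it was 21 of 59, with median differences of 0.04, 0.10 and -0.04. Every pair was higher for 21 members (35.6%, against 23.9% of all genes), every pair was lower for 14 (23.7%, against 22.7%), and 24 were mixed. Fractions did not overlap for 6 members higher in SM positive cells (10.2%, against 10.4% of all genes) and for 2 lower (3.39%, against 9.47%), so these counts were near or below the background. The labels do not say what a replicate number marks.

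**Figure D3:**
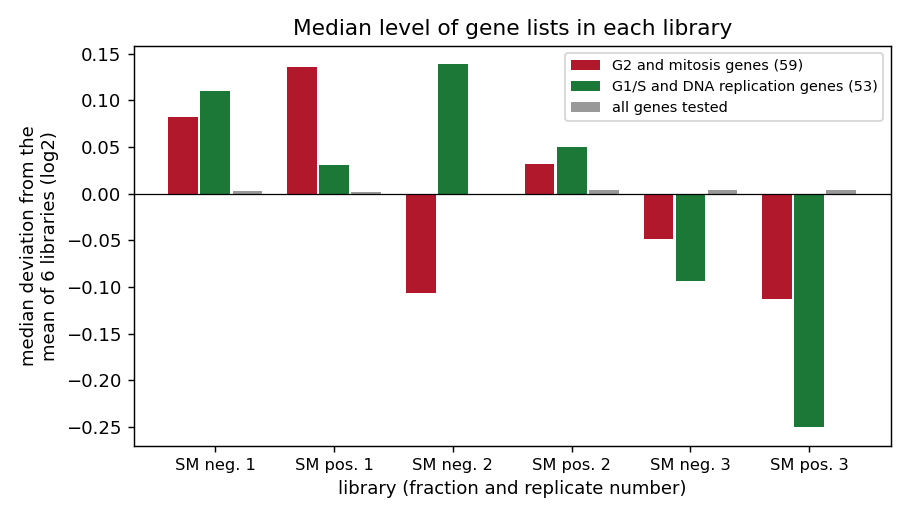
Median deviation of 3 gene lists from their mean over the 6 libraries (log2, vertical axis) in each library (horizontal axis), with libraries of the same replicate number side by side. The G2 and mitosis genes move with the replicate number, positive in both libraries of replicate 1 and negative in both of replicate 3, and the G1/S genes are lower in the SM positive library of each pair.

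Other cell cycle lists gave a reference for the members. Of 89 tested other G2 and mitosis genes, 11 rose and 1 fell in the paired fit (12.4% and 1.12%, against 8.52% and 5.6% of all genes). Among genes at least as abundant as the lowest member the shares were 11.9% and 7.73%, though this list reaches below that level, to 8.21 CPM. The median log2 change of the list was 0.003. The count of 12 fell to 6 without pair 1 (5.03% of all genes) and to 7 with a paired DESeq2 fit (4.39% of all genes). The ubiquitin ligase gene G2e3 passed without the block as well, as the 1 gene of the list that did (51.6 ± 2.33 CPM in SM negative, 69.1 ± 6.99 CPM in SM positive; log2 change 0.42 ± 0.0786 SE with adjusted p = 0.0316). That call ended without any single library except SM positive replicate 3. Kpna2, an importin, rose from 340.2 ± 16.7 to 405 ± 14.6 CPM (paired adjusted p = 0.000676), and Spag5, the spindle protein astrin, was the gene that fell (log2 change -0.20, paired adjusted p = 0.00449). Of 23 anaphase-promoting complex and mitotic exit genes, Fbxo5, which encodes the inhibitor EMI1, rose (log2 change 0.23, paired adjusted p = 0.00478). Cdc23, a core subunit that overlaps Kif20a and shares sequence with it, fell (-0.14, paired adjusted p = 0.0362). Fbxo5 and Cdc23 are 8.70% of the list, against 14.1% of all genes. Neither call was made without pair 1 or with a paired DESeq2 fit.

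Genes of the G1/S transition and DNA replication act in the preceding phases of the cycle. Of 53 tested, 47 had a negative log2 change, with a median of -0.11. Positive changes made up 11.3%, against 49.8% of all genes. In every pair 38 were lower (71.7%, against 22.7% of all genes). In the paired fit 17 fell and 2 rose (32.1% and 3.77%, against 5.6% and 8.52% of all genes), and without the block none passed. Among genes at least as abundant as the lowest member, 7.73% fell and 11.9% rose, though part of this list lies below that level. Cdt1, the licensing factor that loads the MCM helicase, fell from 122 ± 9.72 to 102 ± 12.3 CPM (paired adjusted p = 0.000379), and Rfc3, a clamp loader subunit, from 40.1 ± 4.37 to 33.3 ± 4.29 CPM (0.00165). Ccne2, a cyclin of S phase entry, and Rrm2, a subunit of ribonucleotide reductase, were the 2 that rose (log2 changes 0.21 and 0.15). Of the 53, the count fell to 6 without pair 1 (5.03% of all genes) and to 5 without pair 3 (6.23% of all genes). It was 16 without pair 2 (12.6% of all genes). With a paired DESeq2 fit it was 5 (4.39% of all genes). No test compared this list with the mitotic genes, so the contrast in medians (-0.11 against 0.04) is a description.

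**Figure D4:**
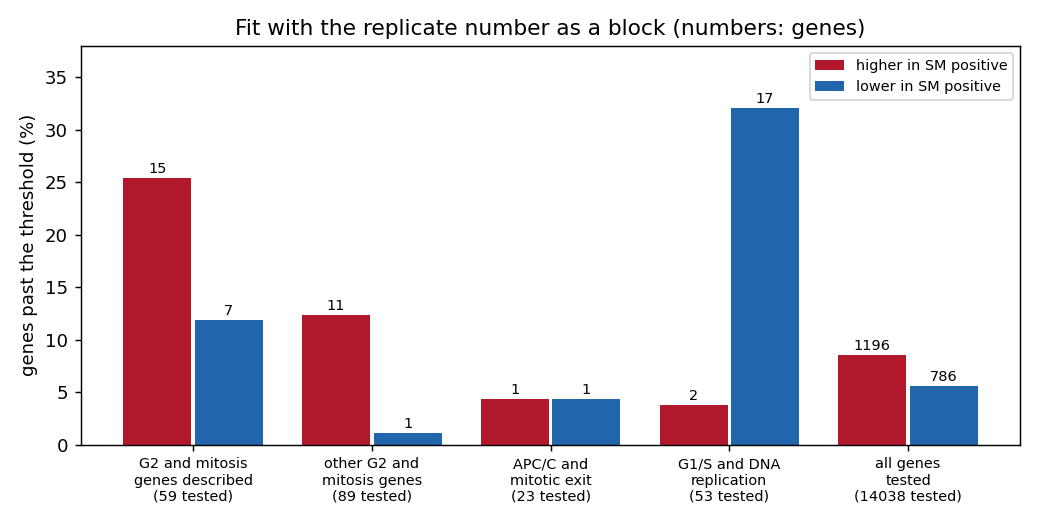
Share of tested genes past the threshold in the paired fit (vertical axis, percent; numbers over the bars are genes) for the 59 members, 3 other cell cycle lists and all genes. The members have 25.4% higher and 11.9% lower, and the G1/S list 3.77% higher and 32.1% lower, against 8.52% and 5.6% of all genes.

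Libraries held 18733801 to 26533528 counts, and the lowest member, Kif18a, averaged 20.2 ± 1.63 CPM in SM negative cells, so depth did not limit detection of any member. The 5 epithelial markers summed to 2834 to 3006 CPM in SM negative and 2711 to 2890.2 CPM in SM positive libraries, with Krt19 alone nearly absent at no more than 47 counts in a library. The 6 leukocyte markers summed to 6.17 to 8.44 and 4.72 to 6.23 CPM, almost all of it Cd68, with Cd3e and Adgre1 at 0 in all 6 libraries. The 5 fibroblast and pericyte markers summed to 3.41 to 4.02 and 4.67 to 6.74 CPM, almost all Pdgfra, with Lum at 0. The 4 endothelial markers stayed at or below 0.427 CPM and the 3 erythroid markers at or below 0.304 CPM, with Hbb-bs at 0. Cd68, Pdgfra and the other non-epithelial markers lay below the mean level of every member, and their part in the member differences was not tested. A gene on the opposite strand overlaps 23 members, 12 of which passed in the paired fit: Mki67, Top2a, Smc2, Ccna2, Cdc25b, Plk1, Bub3, Cenpf, Kif11, Nusap1, Kif20a and Prc1. The library kit marks strand per the labels, but whether the counting used it is not given in the sources read, and antisense reads may enter these levels. At least 10% of the 31-base stretches are shared with other genes in 12 members, of which Ccna2, Ccnb1, Plk1, Kif20a and Prc1 passed.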

How the data were processed

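Poly(A) RNA of 6 libraries (3 SM positive, 3 SM negative) was sequenced after a stranded preparation, per the labels' protocols. The authors deposited a table of gene-level expected counts for 53465 genes. FastQC 0.11.5, STAR 2.6.0a, RSEM 1.3.1 and GRCm38 are named in the submitters' processing notes; the sources used here give neither the annotation release nor the strand setting. Expected counts are estimates that divide reads among genes with shared sequence. They were rounded to whole numbers, which altered 13.5% to 14.4% of values per library. Library totals ran from 18733801 to 26533528, and 3 counts corresponded to 0.113 to 0.16 CPM. Symbols were taken by Ensembl identifier without version, from the GRCm38 gene annotation, which matched 99.8% of rows.

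Genes were filtered with filterByExpr, scaled by TMM, and tested with the quasi-likelihood F test of edgeR 4.0.16 (limma 3.58.1, R 4.3.3), with Benjamini-Hochberg adjustment over 14038 genes at a threshold of 0.05. This fit treats libraries as independent. Since members were to be compared by replicate number, a second fit, blocked on that number, was set beside it. Same-numbered libraries deviated together, with correlations of 0.22, 0.28 and 0.196 over all genes. Between different numbers the correlations were -0.175 to -0.043. Deviations were taken from each fraction's mean, so positive same-number values push the others negative, and the negative values add no separate evidence. Nothing says that replicates came from separate cultures, so p-values may measure technical spread only. No libraries were duplicates: chi-square values per gene between libraries were 6.40 to 18.4. DESeq2 1.42.0, limma-voom, other scalings and filters, and leaving out each library or pair were tried, and the fits were tested on simulated data.

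The members and lists were chosen with earlier results of these data known. Members named by rule are Mki67 and 11 other markers and regulators, the 8 most positive and 8 most negative members, and the smallest p of each role. Other members are named beside small counts or given by log2 change to complete a role. Genes singled out in the accounts of the other cell cycle lists had the smallest p without the block in each direction, among those that passed in either fit. They are extremes of their lists. Promoter windows are RefSeq, GRCm38.p6.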

Additional observations from a re-analysis of the deposited data

How the results depend on the processing

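The count of members past the threshold was 0 under RLE scaling, library totals, a stricter filter, limma-voom and each omission of 1 library. It was 8 without a filter and 1 with DESeq2. With the replicate block it was 22, and 7 without pair 1, 17 without pair 2 and 20 without pair 3; with the block it was 22 under RLE scaling, library totals and limma-voom and 13 under DESeq2. The median log2 change of members ranged from -0.0339 to 0.0951 over omissions of 1 library; the negative value came from leaving out SM positive replicate 1. Other G2 and mitosis genes: the count of 1 became 4 without a filter, 3 with DESeq2 and 0 to 1 over omissions; with the block it was 12 (6 to 13 without a pair; 12 under RLE scaling, library totals and limma-voom; 7 under DESeq2). APC/C and mitotic exit genes went from 0 to 2 with the block (0 to 2 without a pair; 2 under RLE scaling, library totals and limma-voom; 0 under DESeq2). G1/S genes went from 0 to 1 without a filter and 19 with the block (5 to 16 without a pair; 19 under RLE scaling and limma-voom, 18 with library totals, 5 under DESeq2). Over all genes, 190 became 663 without a filter, 334 with DESeq2 and 25 to 123 over omissions. With the block they were 1982 (705, 1793 and 886 without pair 1, 2 or 3; 1975 under RLE scaling, 1961 with library totals, 1978 under limma-voom, 616 under DESeq2).

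Of the 28 members followed singly, none changed direction under these settings. The 28 are the markers and regulators always named, plus members picked for large changes, small p or a paired call in these data. That choice favours steady directions. Over all 59, up to 9 changed direction, most without SM positive replicate 1. Omitting a library leaves 2 in an arm, and otherwise the cause of these differences was not tested. The fits with other scalings or tools under the block were chosen after seeing the data.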
